A study of Mus musculus with 17 samples.

Results

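The hepatectomy effect in isolated crypts of mouse small intestine was compared with that in the IEC fraction (IEC is the usual abbreviation for intestinal epithelial cells) by RNA-seq. The libraries were chosen by their titles and make up 8 of the 17 libraries of a study of how the liver acts on intestinal stem cells through the secreted protein PEDF. The remaining libraries, from liver, were not analysed here. All mice were labelled wild type (WT). The 4 groups were sham-operated IEC, hepatectomised IEC, sham-operated crypts and hepatectomised crypts, with 2 libraries each (n = 2 throughout). The age and sex of the mice, how much liver was removed, the time after surgery and the number of mice per library are not given by the sources used here. Nothing states that the libraries of a group came from separate mice, so p-values measure the spread between these libraries only, which may be technical. No gene was targeted, so no transcript checks the hepatectomy and sham labels. The quantity of interest was the interaction, that is, the log2 fold change of hepatectomy over sham in crypts minus the same log2 fold change in IEC.

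The small-intestinal epithelium renews itself from stem cells at the crypt base, whose daughters divide in the crypt and differentiate as they move up the villus. Absorptive enterocytes take up nutrients, whereas the secretory lineages comprise mucus-producing goblet cells, antimicrobial Paneth cells at the crypt base, hormone-releasing enteroendocrine cells and chemosensory tuft cells. Wnt signalling maintains the stem cells, and Notch signalling steers daughters away from the secretory fate.

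The libraries held 26609786 to 43580050 counts, and 18207 of 33840 genes passed the filter on low counts. Hepatectomy libraries had counts for 29786 to 30461 genes and sham libraries for 24420 to 26186. Olfactory receptor genes, which the gut hardly expresses, summed to 131 to 164 CPM (read counts scaled to library size, here by the total alone) in hepatectomy libraries, where crypts had the higher values, and 62.5 to 82.3 in sham libraries. The sham crypts stood apart in 2 ways that move with the interaction: mitochondrial genes took 4.0 to 4.41% of their counts against 7.30 to 10.1% elsewhere, and the predicted gene Gm10800 took 0.0717 to 0.102% against 1.83 to 5.12%. The part of these features in the differences described here was not tested. The 20 stem cell markers summed to 2495 to 2521 CPM (here and below with TMM factors) in sham crypts and 2185 to 2187 in sham IEC, and brush border hydrolases to 2128 to 2135 and 7075 to 7076, both in the order that the labels imply. Single stem cell markers did not all follow: the median log2 difference of crypts over IEC in sham libraries was -0.06 over the stem cell list and -0.38 over the Wnt list, and Lgr5 was lower in sham crypts (12.9 and 12.6 CPM) than in sham IEC (16 and 17.1). Paneth cell markers went the other way, with 1976 to 2208 CPM in sham crypts and 6536 to 6915 in sham IEC, so the IEC fraction also held crypt-base transcripts. In bulk RNA, fewer cells of a type and less RNA per cell cannot be told apart.

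Hepatectomy changed 6911 genes in crypts and 6926 in IEC at an adjusted p under 0.05 (edgeR quasi-likelihood test with Benjamini-Hochberg adjustment), 38% of the genes tested in each fraction. In crypts 19.3% of genes rose and 18.7% fell, and in IEC 19.5% rose and 18.5% fell. The interaction was called for 3699 genes, 20.3% of those tested: 1756 with the higher value in crypts (9.64%) and 1943 with the lower value in crypts (10.7%). Among them, 399 genes (2.19% of those tested) changed in opposite directions, 205 rising in crypts and falling in IEC and 194 doing the reverse. In 1041 genes (5.72%) the effect was called in crypts and not in IEC, with 576 rising and 465 falling. A further 1274 genes (7%) were called in IEC and not in crypts, with 713 rising and 561 falling. The remaining called genes either moved the same way by different amounts (890, 4.89%) or had neither effect called by itself (95). Higher interactions made up 47.5% of the calls, and 57.8% when mitochondrial genes and the abundant loci Gm10800 and CT010467.1 were left out of the fit, an alternative chosen after seeing the data. With the stricter filter on low counts they made up 38.5% (1393 higher, 2221 lower), so neither direction prevailed across the fits. Without sham crypt replicate 1, 1169 lower interactions, 102 opposite genes that fell in crypts and 645 crypt-only genes were called, and without sham IEC replicate 2, 129 opposite genes that rose in crypts.

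An effect that missed the threshold in a fraction may still be present there. The 95% interval of the uncalled effect lay within 0.5 log2 units of 0 for 714 of the 1041 crypt genes and for 1084 of the 1274 IEC genes. Most opposite changes were small: both effects reached 0.5 log2 units in 59 of the 399 genes. The opposite calls were also less firm than the interaction: 382 of these genes kept the interaction whichever library was left out, and 118 kept both opposite effects. Across all genes tested the effects in crypts and IEC, which share no library, had a Pearson r of 0.53, given as a description since genes are not replicates.

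**Figure D1:**
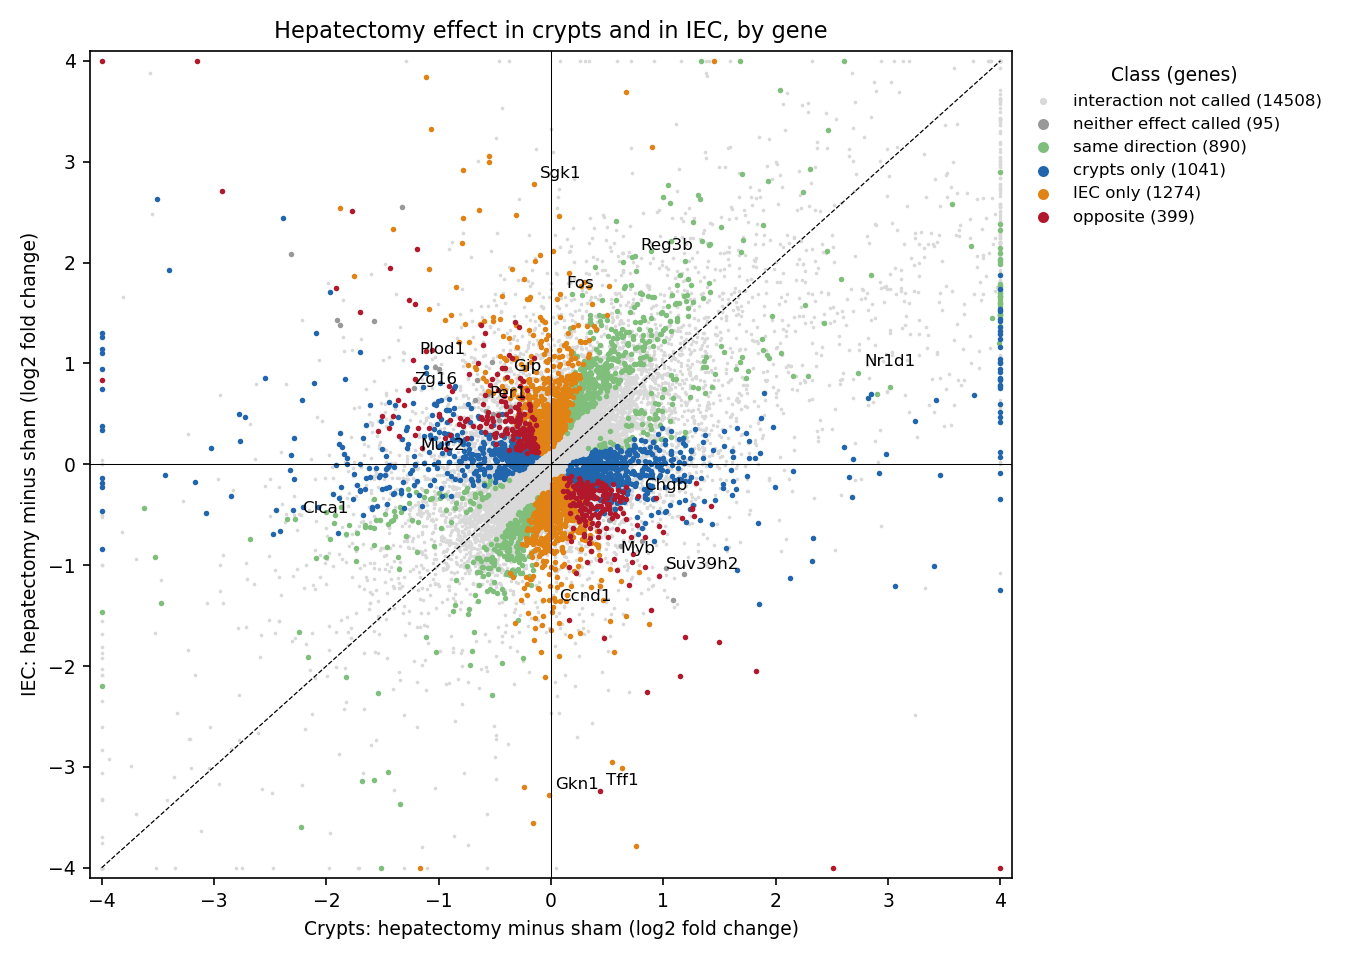
Each point is a gene tested, with the log2 fold change of hepatectomy over sham in crypts on the x axis and in IEC on the y axis, coloured by class; the dashed line marks equal effects and values beyond 4 are drawn at 4. The 399 genes with opposite effects fill the upper left and lower right fields and mostly lie near the origin, while Sgk1 and Ccnd1 lie on the vertical axis and Muc2 near the horizontal one.

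Goblet cell transcripts fell after hepatectomy in crypts and not, as a group, in IEC. Of 19 goblet genes tested, 18 fell in crypts and none rose, whereas in IEC 5 fell and 4 rose. The interaction was called for 15 of them, all lower in crypts, against 10.7% of all genes, and the median log2 fold change was -1.08 in crypts and -0.03 in IEC. The summed level of the 19 genes was 6809.6 to 6842 CPM in sham crypts and 3038 to 3103 in hepatectomy crypts, but 8032 to 8338 in sham IEC and 9745 to 10011 in hepatectomy IEC. All 4 goblet genes with opposite effects encode secreted products: Zg16, Guca2a, Tff3 and Fcgbp.

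Zg16 encodes a lectin of the mucus that binds bacteria (chromosome 7, 127050156 to 127087328 in mm10). It had 1350.2 and 1333 CPM in sham IEC, 2138 and 2322 in hepatectomy IEC, 893 and 924 in sham crypts and 385 and 365 in hepatectomy crypts. It rose 1.66-fold in IEC (log2 0.73 ± 0.04, SE, adjusted p = 3.8e-10) and fell 2.42-fold in crypts (log2 -1.28 ± 0.05, adjusted p = 5.1e-13). The interaction of -2.01 ± 0.06 (adjusted p = 2.5e-12) exceeded the spread between libraries. Sham and hepatectomy libraries did not overlap in either fraction, a condition of the rule that chose genes by the size of the interaction. Guca2a encodes guanylin, the peptide that activates the fluid-regulating receptor guanylate cyclase C. Its levels were 422 and 422 CPM in sham IEC, 781 and 786 in hepatectomy IEC, 296 and 286 in sham crypts and 177 and 174 in hepatectomy crypts, again without overlap, and the interaction was -1.62 ± 0.06 (adjusted p = 3.6e-12). The trefoil peptide gene Tff3, whose product protects the mucosa, had an interaction of -1.44 ± 0.06, and Fcgbp, which encodes a mucin-binding protein, one of -1.21 ± 0.06.

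Muc2, the gene of the gel-forming mucin, belonged to the 8 goblet genes called in crypts alone. It was measured at 601 and 595 CPM in sham crypts, 263 and 250.1 in hepatectomy crypts, 689 and 658 in sham IEC and 705 and 719.9 in hepatectomy IEC. The fall in crypts was 2.33-fold, and the IEC effect of 0.08 had a 95% interval of -0.01 to 0.17. Spdef, a transcription factor of goblet and Paneth maturation, fell by 1.19 in crypts against -0.16 in IEC. Bcas1 and the chemokine gene Ccl6 showed the same form, with crypt effects of -1.24 and -0.80 and IEC effects of -0.05 and 0.04. Clca1, a mucus-processing secreted protein, and Agr2, a disulphide isomerase needed for mucin folding, fell in both fractions but more in crypts: Clca1 by 2.28 against 0.54, and Agr2 by 1.56 against 0.55 log2 units. Under a stricter filter on low values, the small rise of Muc2 in IEC passed the threshold, so its listing as a crypt-only gene rests on the filter.

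Transcription factors and ligands of the secretory fate followed in part. Atoh1, the master factor of secretory commitment, had 24.6 and 25.7 CPM in sham crypts, 11.5 and 9.57 in hepatectomy crypts, 18 and 19.9 in sham IEC and 14.7 and 14.3 in hepatectomy IEC, and its fall was larger in crypts (-1.26) than in IEC (-0.38). The Notch ligand genes Dll1 and Dll4, expressed by secretory progenitors, both fell in crypts, by 0.53 and 0.81. In IEC, Dll1 rose by 0.38, whereas Dll4 had 0.25 and did not pass, except under the stricter filter (adjusted p = 0.0315). Of 15 Notch and secretory-fate genes tested, the interaction was lower in crypts for 5 and higher for 3, against 10.7 and 9.64% of all genes. The list thus had no single direction. Without sham IEC replicate 2 the IEC effects of Dll1 and Atoh1 lost their calls (adjusted p = 0.0515 and 0.0628), while their interactions held.

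**Figure D2:**
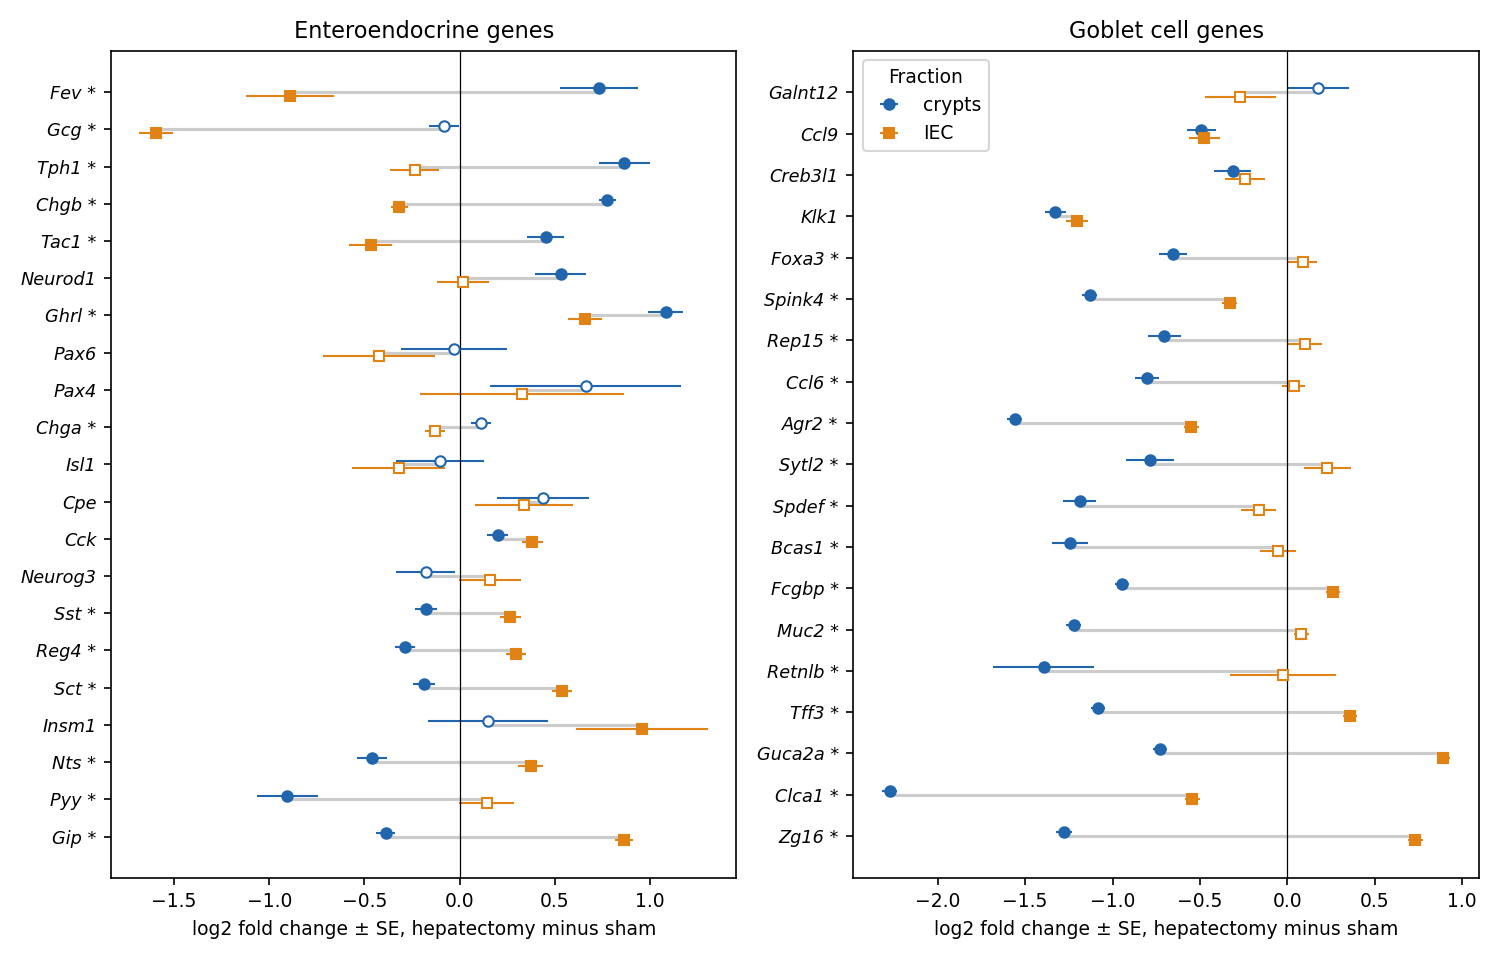
Log2 fold change of hepatectomy over sham with its standard error for each tested enteroendocrine gene (left) and goblet cell gene (right), in crypts (blue circles) and IEC (orange squares); filled symbols passed an adjusted p under 0.05, and an asterisk marks a called interaction. All tested goblet genes but Galnt12 fell in crypts and lie left of 0, with IEC symbols to their right, whereas enteroendocrine genes run from Gip at the bottom to Fev at the top.

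Paneth cell transcripts fell in both fractions, and more in crypts. Of 21 tested, 20 fell in crypts and 18 in IEC, with medians of -1.23 in crypts and -0.64 in IEC, and 12 had a lower and 2 a higher interaction in crypts, against 10.7 and 9.64% of all genes. Lyz1, encoding the main Paneth cell lysozyme, had 327 and 356 CPM in sham crypts, 126 and 132 in hepatectomy crypts, 720.2 and 706 in sham IEC and 489.7 and 485 in hepatectomy IEC. It fell by 1.41 in crypts and 0.55 in IEC (interaction -0.86 ± 0.06, adjusted p = 6.0e-08). Ang4, an antimicrobial ribonuclease, fell by 2.0 and 0.48.

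Mmp7, Defa35, Defa39 and Defa26 departed from this order. Mmp7, whose product cleaves pro-defensins into active peptides, had 63.3 and 61.8 CPM in sham IEC, 85.5 and 88.7 in hepatectomy IEC, 59.6 and 56.5 in sham crypts and 28.1 and 30.0 in hepatectomy crypts. It thus fell in crypts (-1.0) and rose in IEC (0.48), the opposite direction to Lyz1 in the latter. The alpha-defensin gene Defa35 dropped from 10.2 and 12.7 to 0.0294 and 0.186 CPM in crypts and went from 1.87 and 1.96 to 3.09 and 3.75 in IEC. Defensin genes are near-identical copies whose reads the counting may have split, so single members are uncertain. Defa39 fell in IEC (350.3 and 321 to 245 and 268 CPM) with 0.24 in crypts, a value that did not pass here and passed as a rise without sham crypt replicate 2 (adjusted p = 0.00196) and with RLE scaling, DESeq2, no filter and estimates that were not robust, and without mitochondrial genes. Defa26 fell more in IEC (-1.97) than in crypts (-0.44), where the fall missed the threshold when either sham IEC library, sham crypt replicate 2 or either hepatectomy crypt library was left out (adjusted p = 0.0512 to 0.428), and with DESeq2. The IEC rise of Defa35 had an adjusted p of 0.0659 without sham IEC replicate 1 and 0.0855 without hepatectomy IEC replicate 2. Lyz2, the lysozyme gene of macrophages, was low throughout, with 3.84 and 3.87 CPM in sham IEC, 6.11 and 5.93 in hepatectomy IEC, 1.47 and 1.36 in sham crypts and 0.529 and 0.559 in hepatectomy crypts. It too fell in crypts (-1.37) and rose in IEC (0.64). It resembles Lyz1 closely, so reads may be shared.

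Enteroendocrine genes did not move as a group. Of 21 tested, 7 had a higher and 6 a lower interaction in crypts, and 8 had opposite effects, against 9.64, 10.7 and 2.19% of all genes. The list medians were 0.11 in crypts and 0.16 in IEC. The hormone genes Gip, Sct, Nts and Sst and the lectin gene Reg4 fell in crypts and rose in IEC. Chgb, Tac1 and Fev did the reverse. Among other members of the list, Tph1 was called in crypts alone. Chga, encoding chromogranin A, had a called interaction with neither effect called. Hormone genes did not all share a direction. Ghrl, encoding ghrelin, rose in both fractions, by 1.08 in crypts and 0.66 in IEC, and its interaction of 0.42 ± 0.13 lost the call when either sham IEC library, sham crypt replicate 1, hepatectomy IEC replicate 1 or hepatectomy crypt replicate 2 was left out (adjusted p = 0.0541 to 0.0961) and with DESeq2. Cck, encoding cholecystokinin, rose by 0.20 and 0.38, and its interaction was not called (adjusted p = 0.120) except under the stricter filter (0.0357).

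Gip, the incretin made by K cells of the upper intestine (chromosome 11, 96024545 to 96030831), had 153 and 146 CPM in sham IEC, 264 and 278 in hepatectomy IEC, 74.7 and 75.1 in sham crypts and 58.3 and 56.1 in hepatectomy crypts. It rose 1.82-fold in IEC and fell 1.31-fold in crypts, an interaction of -1.25 ± 0.07 (adjusted p = 1.4e-09) with no overlap between sham and hepatectomy libraries. Neurotensin (Nts) had 45.4 and 43.9 CPM in sham IEC, 57.9 and 57.6 in hepatectomy IEC, 12.5 and 11.9 in sham crypts and 8.78 and 8.92 in hepatectomy crypts, with effects of -0.46 in crypts and 0.37 in IEC. Secretin (Sct) and Reg4 had smaller interactions, -0.72 ± 0.08 and -0.58 ± 0.07. The crypt fall of Sct was weak, with an adjusted p of 0.0725 without sham crypt replicate 1, 0.102 without sham crypt replicate 2 and 0.100 without hepatectomy crypt replicate 1. Somatostatin (Sst) went from 72.9 and 70.2 to 84.9 and 87.2 CPM in IEC and from 27.5 and 27.5 to 24.5 and 24.1 in crypts. Its crypt fall of 0.18 missed the threshold whichever crypt library was left out (adjusted p = 0.0611 to 0.106), with RLE scaling and with DESeq2.

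Chgb, encoding the granule protein chromogranin B (chromosome 2, 132781278 to 132795079), had 213 and 212 CPM in sham IEC, 176 and 165 in hepatectomy IEC, 144 and 142 in sham crypts and 244 and 246 in hepatectomy crypts. It rose by 0.78 ± 0.04 in crypts and fell by 0.32 in IEC, for an interaction of 1.09 ± 0.06 (adjusted p = 1.8e-09). Chgb was lower in crypts than in IEC in sham mice (adjusted p = 1.2e-08) and higher after hepatectomy (adjusted p = 1.9e-08). Tac1, encoding the substance P precursor, and Tph1, the enzyme that starts serotonin synthesis, also rose in crypts, by 0.45 and 0.86. The transcription factor gene Fev, a marker of the serotonergic lineage, was low at 3.88 and 3.30 CPM in sham IEC, 1.81 and 2.07 in hepatectomy IEC, 2.76 and 2.0 in sham crypts and 4.52 and 3.35 in hepatectomy crypts. Its interaction of 1.62 ± 0.31 held with each library left out, but the opposite call did not, since an effect lost its call without sham IEC replicate 1 (IEC adjusted p = 0.0522), sham crypt replicate 2 (crypt adjusted p = 0.147), hepatectomy IEC replicate 1 (IEC adjusted p = 0.0509) or hepatectomy crypt replicate 1 (crypt adjusted p = 0.0940). The IEC effect of Tph1 was -0.24 and passed as a fall without hepatectomy IEC replicate 1 (adjusted p = 0.0389).

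Each L cell hormone gene was called in a single fraction. Gcg, the proglucagon gene that yields GLP-1, had 26.3 and 23.3 CPM in sham crypts, 23.4 and 23.3 in hepatectomy crypts, 35.5 and 32.9 in sham IEC and 11.1 and 11.6 in hepatectomy IEC. It fell 3.02-fold in IEC, while the crypt effect was -0.08 with a 95% interval of -0.25 to 0.09. Pyy, another L cell hormone gene, fell in crypts (9.70 and 7.38 to 3.79 and 5.17 CPM, log2 -0.91) and not detectably in IEC (0.14, 95% interval -0.17 to 0.45). Both interactions passed, at 1.51 ± 0.12 and -1.05 ± 0.22, with opposite signs.

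Tuft cell genes differed in the same direction as goblet genes where they differed. The interaction was lower in crypts for 6 of 17, against 10.7% of all genes, and higher for none, with medians of -0.29 in crypts and 0.18 in IEC. Macrophage and dendritic cell markers summed to 16.9 to 17.8 CPM in sham crypts and 11.5 to 11.7 in hepatectomy crypts, and to 19.7 to 19.9 and 15.4 to 16 in IEC. Their part in the tuft cell differences was not tested.

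**Figure D3:**
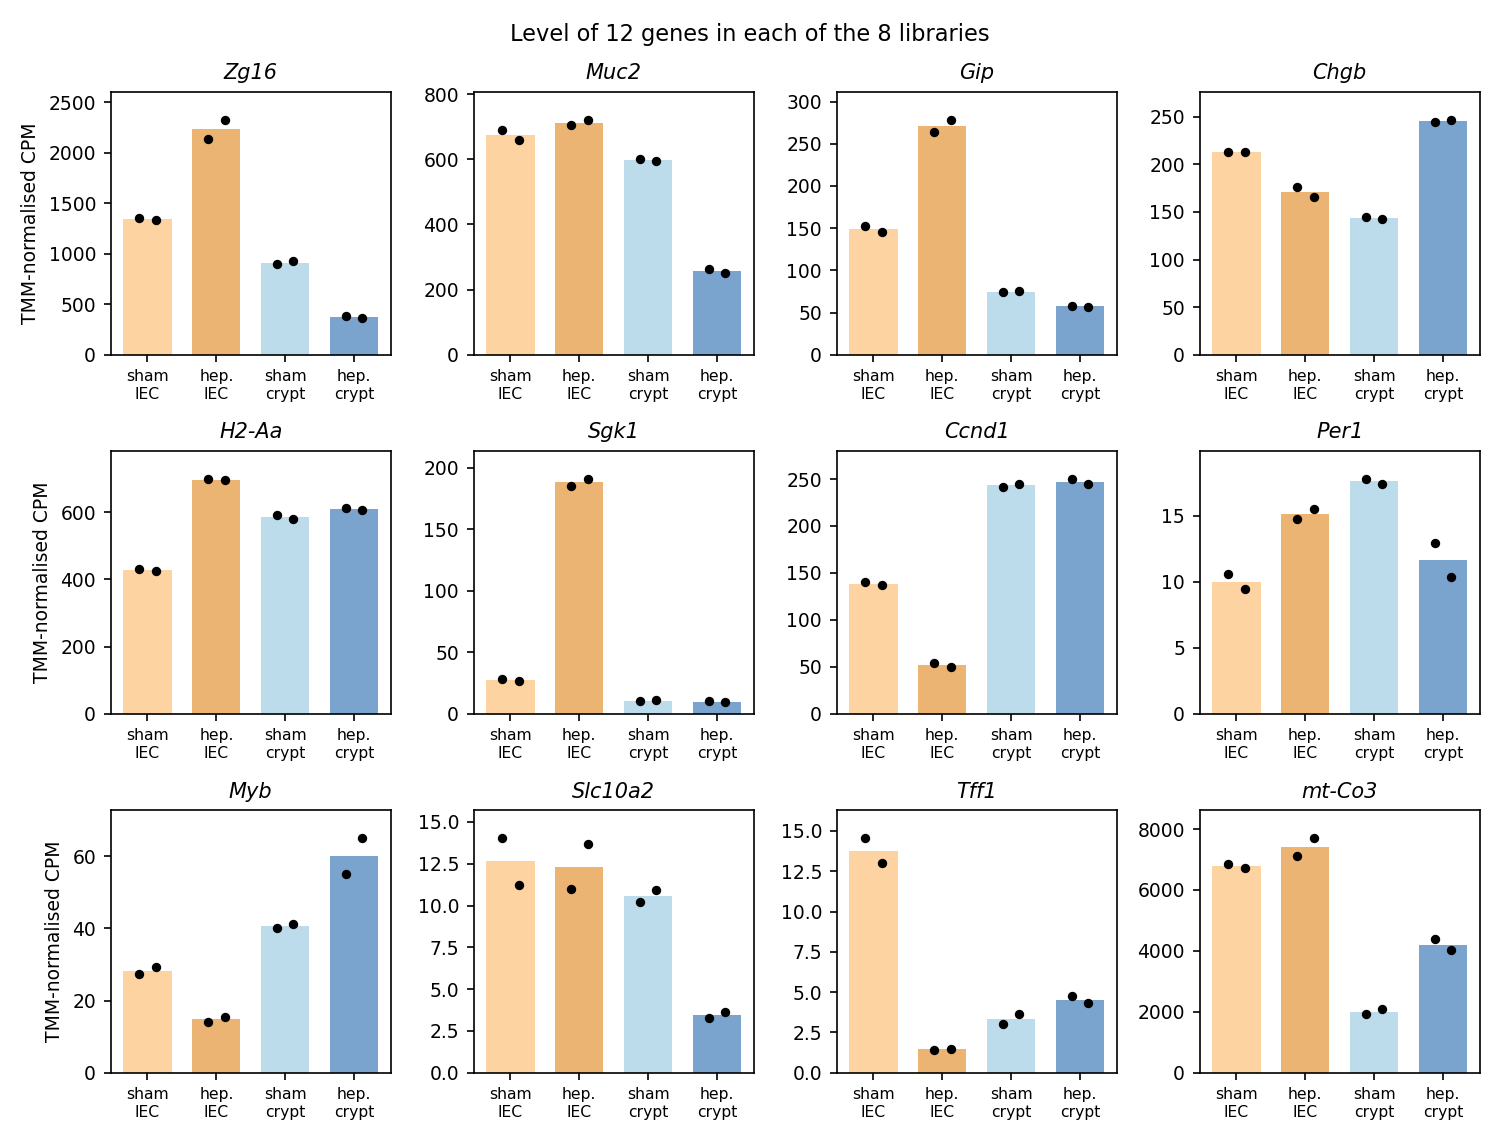
TMM-normalised CPM of 12 genes in the 8 libraries (black points), with bars at the mean of each group; hep. stands for hepatectomy. Zg16 and Gip rise in IEC and fall in crypts, Chgb, Myb and Tff1 do the reverse, Sgk1 and H2-Aa rise in IEC alone, Ccnd1 falls in IEC alone, and Muc2 and Slc10a2 fall in crypts alone; in the mt-Co3 panel the sham crypt libraries are lowest.

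Stem cell and Wnt target genes fell in IEC more than in crypts. Of 20 stem cell genes, 13 fell in IEC and 7 in crypts, against 18.5 and 18.7% of all genes. The interaction was higher in crypts for 8 and lower for none, against 9.64% higher among all genes. Of 17 Wnt targets and feedback genes, 7 fell and 1 rose in IEC, and 3 fell and 1 rose in crypts. The crypt falls were thus near the share of all genes. The interaction was higher in crypts for 6, against the same 9.64%. The lists overlap: of these 6 genes, all but Ccnd1 are also on the stem cell list, so the Wnt counts are not separate support. The medians were -0.09 in crypts and -0.43 in IEC for the stem cell list and 0.02 in crypts and -0.33 in IEC for the Wnt list.

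Ccnd1, the cyclin of the step from G1 to S phase and a Wnt target (chromosome 7, 144929931 to 144939925), had an IEC fall with level crypts. It had 242 and 245 CPM in sham crypts, 249.9 and 244 in hepatectomy crypts, 140.1 and 137 in sham IEC and 53.8 and 50.1 in hepatectomy IEC. Crypt libraries thus overlapped, with an effect of 0.02 (95% interval -0.08 to 0.12), and the IEC libraries fell 2.67-fold (interaction 1.44 ± 0.07, adjusted p = 1.5e-10). Axin2, a negative-feedback target of Wnt signalling, fell by 0.61 in IEC, while its crypt effect was 0.12 (upward, not passed). Ephb2, the receptor that positions cells along the crypt, and Cdk6, a partner kinase of D cyclins, fell by 0.81 and 0.51 in IEC against -0.07 and -0.01 in crypts. Lgr5, the stem cell receptor for R-spondin, had 12.9 and 12.6 CPM in sham crypts, 8.67 and 11.6 in hepatectomy crypts, 16 and 17.1 in sham IEC and 14.4 and 14.6 in hepatectomy IEC, and its interaction of -0.13 ± 0.16 did not pass (adjusted p = 0.630). Olfm4, an abundant transcript of crypt-base cells, fell in both, by 0.85 in crypts and 1.15 in IEC, as did Cd44, by 0.63 and 1.06.

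Cell division genes fell in both fractions. All 25 mitosis and spindle genes fell in each, against 18.7% of all genes in crypts and 18.5% in IEC. Their medians were -0.66 in crypts and -0.95 in IEC. The interaction was called for 13, all with the larger fall in IEC, against 9.64% higher in crypts among all genes. Top2a, the topoisomerase that untangles replicated DNA, went from 131 and 127 to 62.3 and 64.6 CPM in IEC and from 202 and 205 to 134 and 132 in crypts. Among 27 S-phase genes, 25 fell in IEC and 22 in crypts, against the same shares of all genes. The interaction was called for 7, again with the larger fall in IEC, against the same 9.64%.

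**Figure D4:**
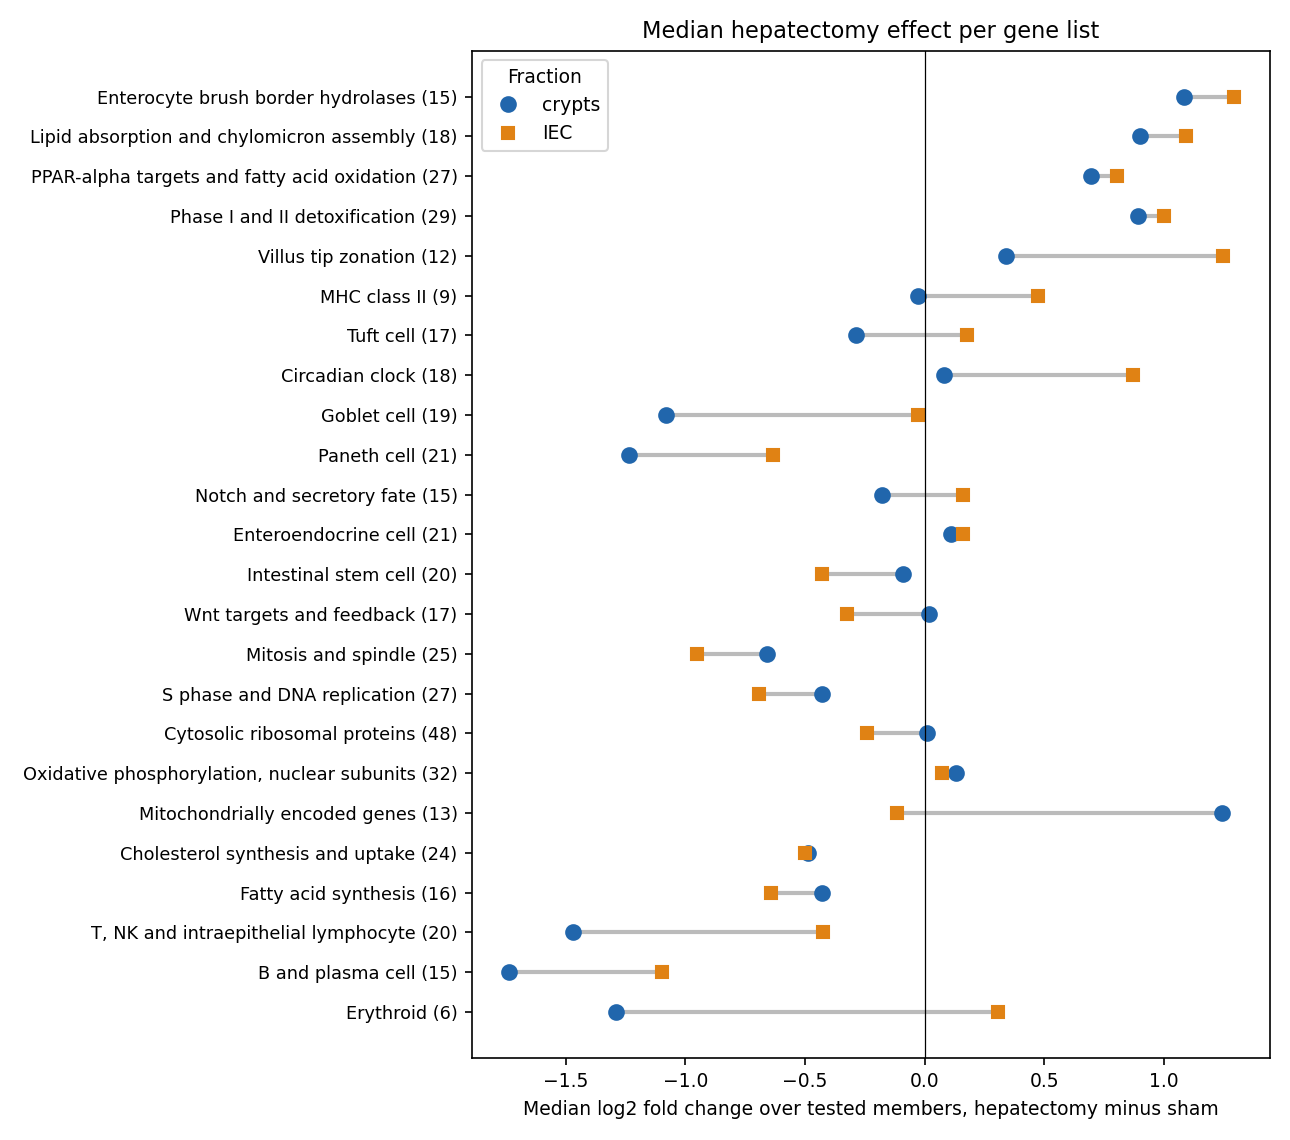
Median log2 fold change of hepatectomy over sham over the tested members of 24 gene lists (number of members in brackets), in crypts (blue circles) and IEC (orange squares). The fractions lie far apart for goblet, lymphocyte, erythroid, villus tip and mitochondrially encoded genes, and close together for oxidative phosphorylation subunits and cholesterol synthesis.

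Genes called in IEC alone with a rise included kinase, lipid and villus-tip genes. Sgk1, a steroid- and stress-inducible kinase that promotes sodium uptake (chromosome 10, 21882184 to 21999903), had 28.5 and 26.2 CPM in sham IEC, 186 and 191 in hepatectomy IEC, 10.7 and 10.8 in sham crypts and 10.1 and 9.29 in hepatectomy crypts. It rose 6.87-fold in IEC (adjusted p = 1.6e-15), while in crypts it was at -0.15 (95% interval -0.31 to 0.00), an interaction of -2.93 ± 0.10. The immediate early gene Fos went from 38.4 and 34.1 to 117 and 116 CPM in IEC and from 26.3 and 27.7 to 28.5 and 28.6 in crypts. Of 12 villus-tip genes, 11 rose in IEC and 7 in crypts, and 7 had a lower interaction in crypts against 10.7% of all genes. Among these, the nucleotide-cleaving ectoenzyme gene Enpp3 rose by 1.64 in IEC against -0.22 in crypts, the nucleoside transporter gene Slc28a2 by 1.15 against 0.15, and Ada, encoding adenosine deaminase, rose in both, by 1.48 and 0.35.

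Among lipid genes, Scarb1, encoding the lipoprotein receptor SR-B1, had 3.51 and 3.91 CPM in sham IEC, 13.6 and 16.4 in hepatectomy IEC, 4.53 and 3.67 in sham crypts and 3.79 and 3.59 in hepatectomy crypts, a rise of 2.01 ± 0.15 in IEC against -0.14 in crypts. Ces1d, a carboxylesterase with close copies in the genome, rose by 1.83 against -0.24. G0s2, an inhibitor of adipose triglyceride lipase, was near 0 outside hepatectomy IEC, with 0.149 and 0.269 CPM in sham IEC, 6.60 and 6.50 in hepatectomy IEC, 0.176 and 0.0440 in sham crypts and 0.118 and 0.419 in hepatectomy crypts. Gdpd3, a lysophospholipase D gene, went from 1.01 and 0.422 to 9.82 and 8.82 CPM in IEC and from 0.529 and 0.571 to 0.705 and 1.02 in crypts, and the EGF-family ligand gene Nrg4 rose by 1.75 against 0.34. The remaining leading genes by size were Nat8f2 (3.14 in IEC, 0.89 in crypts) and Fam169b (1.89 and 0.16). At crypt levels this low, calls changed with single libraries. Without sham crypt replicate 2 the interaction had an adjusted p of 0.159 for Nat8f2 and 0.127 for Fam169b. That of G0s2 was at 0.0613 without sham IEC replicate 1 and 0.369 without sham crypt replicate 1. A crypt rise of G0s2 passed without sham crypt replicate 1 (adjusted p = 0.0415) and without hepatectomy crypt replicate 1 (0.0147), so a rise in IEC alone is not shown for this gene. The crypt falls of Ces1d and Enpp3 passed without hepatectomy crypt replicate 2 (adjusted p = 0.0147) and sham crypt replicate 2 (adjusted p = 0.0288), respectively.

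MHC class II genes rose in IEC, with a median effect of 0.48 against -0.03 in crypts. These molecules present peptides to helper T cells, and intestinal epithelium makes them under the control of the co-activator CIITA. Of 9 tested, of 10 listed, 7 rose in IEC and none fell, whereas in crypts 1 rose and 2 fell. The interaction was lower in crypts for 6, all of them called in IEC alone, against 10.7% of all genes. H2-Aa, an alpha chain, had 591 and 579 CPM in sham crypts, 613 and 608 in hepatectomy crypts, 431 and 426 in sham IEC and 699 and 696 in hepatectomy IEC. Its IEC rise was 0.70 ± 0.04, and the crypt effect of 0.06 had a 95% interval of -0.02 to 0.14. In sham mice the crypt level was the higher one (adjusted p = 3.2e-08), and after hepatectomy the IEC level was (adjusted p = 3.5e-04). H2-Ab1 and H2-Eb1, encoding beta chains, rose by 0.74 and 0.63 in IEC against -0.13 and -0.09 in crypts.

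The peptide-loading gene H2-DMb1 rose by 0.62 in IEC against 0.02 in crypts. For H2-DMa and the invariant chain gene Cd74 the IEC rise was 0.31 and 0.31, and the interaction did not hold without sham crypt replicate 1 (adjusted p = 0.109 and 0.0776) or, for H2-DMa, without sham IEC replicate 2 (0.0560). Without a filter on low counts, or for H2-Ab1 without either hepatectomy IEC library (adjusted p = 0.0179 and 0.0164), small crypt falls of H2-Ab1 passed too. Ciita itself rose in both, by 0.50 ± 0.06 in crypts and 0.48 ± 0.07 in IEC (interaction 0.02, 95% interval -0.17 to 0.21). B and plasma cells, macrophages and dendritic cells also express class II. B and plasma cell markers summed to 528 to 539 CPM in sham IEC and 151 to 160.1 in hepatectomy IEC, and to 105 to 111 and 24 to 27.9 in crypts. Macrophage and dendritic cell markers, with the sums given above, were also lower after hepatectomy in both fractions. The part of these cells in the class II differences was not tested.

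The promoters of 3 class II genes that were called in IEC alone are shown because these genes moved together and share a known element. Class II promoters carry a W, X and Y box arrangement, in which the Y box is an inverted CCAAT motif bound by NF-Y. The windows hold the 120 bases before the annotated start, from RefSeq (GRCm38.p6, the assembly of mm10), in the 5′ to 3′ direction of the gene, and capitals mark GATTGG or its reverse complement CCAATC.
H2-Eb1 (chr17:34305747-34305866, plus strand): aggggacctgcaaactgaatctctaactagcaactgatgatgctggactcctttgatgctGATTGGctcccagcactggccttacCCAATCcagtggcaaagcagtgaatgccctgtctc
H2-Aa (chr17:34287824-34287943, minus strand): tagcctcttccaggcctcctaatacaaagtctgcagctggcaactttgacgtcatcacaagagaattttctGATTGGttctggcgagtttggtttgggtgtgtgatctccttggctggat
H2-DMb1 (chr17:34153071-34153190, plus strand): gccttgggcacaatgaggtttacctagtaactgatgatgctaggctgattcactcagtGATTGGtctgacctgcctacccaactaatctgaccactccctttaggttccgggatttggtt
In H2-Eb1 the matches begin 60 and 35 bases before the start, in H2-Aa 49 and in H2-DMb1 62. Searched on both strands, these letters were present in 6 of the 7 class II genes with an entry, of 10 listed. They were present in 9.67% of 32851 promoter windows of the same length, a share per window and not per gene. H2-DMa, also called in IEC alone, had no match at either of its starts, whereas listed genes that were not called or not tested had one. Matches thus did not follow the calls. A match describes the letters only.

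More clock genes had a lower than a higher interaction in crypts. The circadian clock pairs the activators BMAL1 and CLOCK with the repressors PER and CRY, and drives Dbp, Tef, Hlf and Nr1d1 as output. Of 18 tested, 12 rose in IEC and 8 in crypts, against 19.5 and 19.3% of all genes. The interaction was lower in crypts for 6 and higher for 2, against 10.7 and 9.64% of all genes. The count of higher interactions was thus near the share of all genes. Per1 had 10.6 and 9.44 CPM in sham IEC, 14.7 and 15.5 in hepatectomy IEC, 17.8 and 17.4 in sham crypts and 12.9 and 10.4 in hepatectomy crypts, and so fell in crypts (-0.60 ± 0.11) and rose in IEC (0.60 ± 0.12), with an interaction adjusted p of 3.2e-05. Per2 rose 3.40-fold in IEC (5.04 and 5.75 to 19.2 and 17.4 CPM), with 0.27 in crypts (95% interval 0.01 to 0.53, adjusted p = 0.101). Cry1 fell in crypts (-0.71) and was at 0.08 in IEC.

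The output genes Nr1d1, Tef and Dbp rose in both fractions, and Hlf did not. Nr1d1, encoding the repressor REV-ERB alpha, had 7.88 and 8.90 CPM in sham crypts, 51.8 and 60.1 in hepatectomy crypts, 37.8 and 39.1 in sham IEC and 72.2 and 72.1 in hepatectomy IEC, a rise of 2.73 in crypts and 0.91 in IEC. Tef rose by 3.56 and 2.58, whereas the rises of Dbp, 4.46 and 5.22, did not differ beyond their error (interaction 95% interval -2.53 to 1.01). Hlf was low, with 0.858 and 0.806 CPM in sham IEC, 2.59 and 3.86 in hepatectomy IEC, 0.441 and 0.484 in sham crypts and 0.206 and 0.140 in hepatectomy crypts, a rise of 1.95 in IEC and a fall of 1.43 in crypts. The fall had an adjusted p of 0.0975 without sham crypt replicate 2 and 0.140 without hepatectomy crypt replicate 2 and also missed the threshold with DESeq2. Nothing in the sources used here gives the hour of collection, so a time-of-day difference between groups and an effect of surgery cannot be told apart.

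BMAL1 and CLOCK bind the E-box CACGTG. Promoter stretches are shown for the 3 genes searched that had a match, and these moved in different directions. Each holds 60 bases from the 250 bases before a RefSeq start (GRCm38.p6), 5′ to 3′ on the gene's strand, with the E-box in capitals.
Per1, opposite effects (chr11:69098756-69098815, plus strand): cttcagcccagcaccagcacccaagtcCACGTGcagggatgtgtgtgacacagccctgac
Cry1, fall in crypts (chr10:85185082-85185141, minus strand): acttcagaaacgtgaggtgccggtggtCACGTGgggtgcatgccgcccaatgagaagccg
Tef, rise larger in crypts, first start (chr15:81802519-81802578, plus strand): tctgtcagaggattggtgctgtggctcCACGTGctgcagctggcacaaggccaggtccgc
Tef, second start (chr15:81811249-81811308, plus strand): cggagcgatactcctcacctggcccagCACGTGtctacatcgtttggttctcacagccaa
The E-box begins 166 bases before the start in Per1, 60 in Cry1, and 127 and 138 at the starts of Tef. CACGTG, its own reverse complement, was found in 3 of the 6 clock genes with an entry, of 9 searched. Nr1d1, Dbp and Hlf had no match, and neither had the second start of Per1. It was found in 6.02% of all 32851 windows of 250 bases, a share per window and not per gene.

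Fatty acid synthesis genes fell in part, with differences for single steps. Of 16 fatty acid synthesis genes, 9 fell in crypts and 10 in IEC, and 8 had a higher and 2 a lower interaction in crypts, against 9.64 and 10.7% of all genes. Fasn, fatty acid synthase, fell by 0.47 in crypts and 1.04 in IEC. Srebf1, the factor that activates these genes, had 102 and 96.6 CPM in sham IEC, 121 and 126 in hepatectomy IEC, 99.6 and 89 in sham crypts and 72.6 and 70.8 in hepatectomy crypts, a fall in crypts (-0.39) and a rise in IEC (0.31) without overlap, while Fasn fell in IEC. Lpin1, a phosphatidate phosphatase and co-regulator, had 10.2 and 12 CPM in sham crypts, 12.6 and 12.5 in hepatectomy crypts, 9.63 and 8.06 in sham IEC and 2.43 and 3.0 in hepatectomy IEC, a fall of 1.71 in IEC alone, and the elongase gene Elovl6 fell by 0.62 in IEC with 0.03 in crypts. Acacb, whose product makes the malonyl-CoA that limits fatty acid entry into mitochondria, rose in crypts (1.13) with -0.37 in IEC (95% interval -0.76 to 0.02).

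Of 24 cholesterol synthesis and uptake genes, 21 fell in crypts and 16 in IEC, against 18.7 and 18.5% of all genes. The medians were almost equal, -0.49 in crypts and -0.50 in IEC. Enterocyte genes rose in both fractions, with 14 of 15 brush border hydrolases rising in crypts and 14 in IEC, against 19.3 and 19.5% of all genes. The interaction was lower in crypts for 9 of 15 brush border hydrolases, 11 of 18 lipid absorption genes and 12 of 27 PPAR-alpha targets, and higher for 2, 2 and 2, against 10.7% lower and 9.64% higher among all genes. Nutrient transporters were more mixed, with 8 of 16 lower and 5 higher. Alpi, intestinal alkaline phosphatase, rose by 1.78 in IEC and 1.25 in crypts. Aldh1a1, a retinoic acid-forming dehydrogenase, rose by 2.35 and 1.51. The reverse order held for the fructose transporter gene Slc2a5 (1.10 in IEC, 2.05 in crypts) and the retinol-binding protein gene Rbp2 (1.17 and 1.51). Reg3b and Reg3g, antibacterial lectin genes so alike that reads may be split between them, rose by 2.07 and 1.43 in IEC and by 0.74 and 0.50 in crypts.

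Slc10a2, the ileal sodium-dependent bile acid transporter (chromosome 8, 5083219 to 5105351), fell in crypts alone. It had 10.2 and 10.9 CPM in sham crypts, 3.26 and 3.61 in hepatectomy crypts, 14 and 11.2 in sham IEC and 11 and 13.7 in hepatectomy IEC. The IEC libraries overlapped (95% interval -0.31 to 0.24), and the crypt libraries did not, as the choice of this gene required. The crypt level fell 3.07-fold (interaction -1.58 ± 0.20, adjusted p = 1.9e-05). Zinc genes also separated the fractions, with 3 of 10 higher and 5 lower in crypts, against 9.64 and 10.7% of all genes. Slc39a4, the apical zinc importer ZIP4, had 257 and 257 CPM in sham IEC, 363 and 343 in hepatectomy IEC, 245 and 232 in sham crypts and 130.2 and 142 in hepatectomy crypts, so it fell in crypts (-0.81 ± 0.05) and rose in IEC (0.46 ± 0.05). The zinc exporter gene Slc30a1 rose in crypts (1.01) with 0.03 in IEC, and the zinc-binding metallothioneins Mt1 and Mt2 rose in both, more in crypts (1.46 and 2.85) than in IEC (0.89 and 1.88).

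Transcripts of the mitochondrial genome rose in crypts, where sham levels were low. All 13 rose in crypts and none in IEC, and the interaction was higher in crypts for 12, against 9.64% of all genes, with medians of 1.24 in crypts and -0.11 in IEC. mt-Co3, a cytochrome oxidase subunit, had 1928 and 2093 CPM in sham crypts, 4377 and 4039.7 in hepatectomy crypts, 6841 and 6721 in sham IEC and 7122 and 7701 in hepatectomy IEC: the sham crypt libraries were the low ones and all others lay above. A small IEC rise of mt-Co3 passed with RLE scaling (adjusted p = 0.0399), with the stricter filter (0.0108) and without hepatectomy IEC replicate 1 (0.0393), so its crypt-only call rests on these choices. The interaction of mt-Nd3, 0.95 ± 0.24, missed the threshold (adjusted p = 0.0659) and passed with DESeq2, with estimates that were not robust and with the stricter filter. In the same genome, mt-Cytb fell slightly in IEC (-0.18) while rising in crypts (1.29), an opposite call lost without sham IEC replicate 2 (IEC adjusted p = 0.0765), hepatectomy IEC replicate 1 (0.123) or hepatectomy IEC replicate 2 (0.182). Nuclear-encoded subunits of the same complexes differed in few cases, 2 of 32 higher and 1 lower, against 9.64 and 10.7% of all genes. The low mitochondrial share of the sham crypt libraries given above is a sum that includes these same transcripts. It is therefore the crypt rise seen another way and not a separate observation. What made the share low was not tested.

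Genes of cytosolic ribosomal proteins shifted by small amounts. In IEC 24 of 48 fell and none rose, in crypts 2 fell and 2 rose, and 11 had a higher interaction in crypts against 9.64% of all genes. Rpl3 fell by 0.31 in IEC with 0.11 in crypts, a crypt value that passed as a rise without hepatectomy crypt replicate 2 (adjusted p = 0.0156). Processed pseudogenes resemble these genes, so reads may have been split.

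Lymphocyte transcripts, which reach such fractions with intraepithelial lymphocytes, fell more in crypts. Of 20 tested, of 21 listed, 17 fell in crypts and 10 in IEC, and 13 had a lower interaction in crypts against 10.7% of all genes. Their summed level was 155 to 165 CPM in sham crypts and 57.3 to 59.3 in hepatectomy crypts, and 197 to 199.7 and 145 to 148 in IEC. Cd8a, the T cell co-receptor, had 6.94 and 7.25 CPM in sham crypts, 2.20 and 2.96 in hepatectomy crypts, 7.09 and 6.52 in sham IEC and 6.24 and 7.32 in hepatectomy IEC. The crypt libraries separated, a condition of the rule that chose genes by the size of the interaction, and the IEC libraries overlapped. Gzmb, the killer-cell protease granzyme B, fell in crypts by 1.70 with -0.26 in IEC, Nkg7, another cytotoxic granule gene, by 1.53 with -0.13, and Arhgdib, a leukocyte regulator of small GTPases, by 1.70 with -0.25. The smaller Gzmb fall in IEC passed without hepatectomy crypt replicate 1 or 2 (adjusted p = 0.0264 and 0.0271).

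Haemoglobin transcripts, a sign of blood in a sample, were also opposite. Hba-a1 had 136 and 133 CPM in sham IEC, 166 and 162 in hepatectomy IEC, 15.2 and 14.5 in sham crypts and 5.49 and 6.10 in hepatectomy crypts, a fall of 1.35 in crypts and a rise of 0.28 in IEC. Hba-a2 and Hbb-bs followed (-1.31 and -1.18 in crypts, 0.59 and 0.36 in IEC), and Hbb-bt fell in crypts (-1.27) with 0.20 in IEC. These genes are near-identical pairs, so the split of reads between copies is uncertain, and the IEC rise of Hbb-bs had an adjusted p of 0.0710 without sham IEC replicate 1, 0.100 without sham IEC replicate 2 and 0.0851 without hepatectomy IEC replicate 2. The summed 9 erythroid genes were at 96.4 to 99.1 CPM in sham crypts, 82.1 to 88.1 in hepatectomy crypts, 389 to 397 in sham IEC and 492 to 515 in hepatectomy IEC. Their level therefore moved in the direction of the goblet genes. Fibroblast markers summed to 134 to 136 CPM in sham IEC and 271 to 276 in hepatectomy IEC, against 51.6 to 51.8 and 55.7 to 56.6 in crypts. Over the 9 fibroblast genes tested, of 13 listed, the median log2 fold change was 2.35 in crypts and 1.15 in IEC. The part of blood or of other cells in the goblet, hormone and other differences was not tested. Tpsg1, a membrane-anchored tryptase gene of mast cells, fell by 1.61 in crypts alone, while the summed mast cell markers were at 37.8 to 42.9 CPM in sham crypts, 7.94 to 8.14 in hepatectomy crypts, 28.2 to 28.8 in sham IEC and 11.4 to 11.4 in hepatectomy IEC. The myeloid integrin gene Itgam fell in both, by 2.28 in IEC and 0.52 in crypts.

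**Figure D5:**
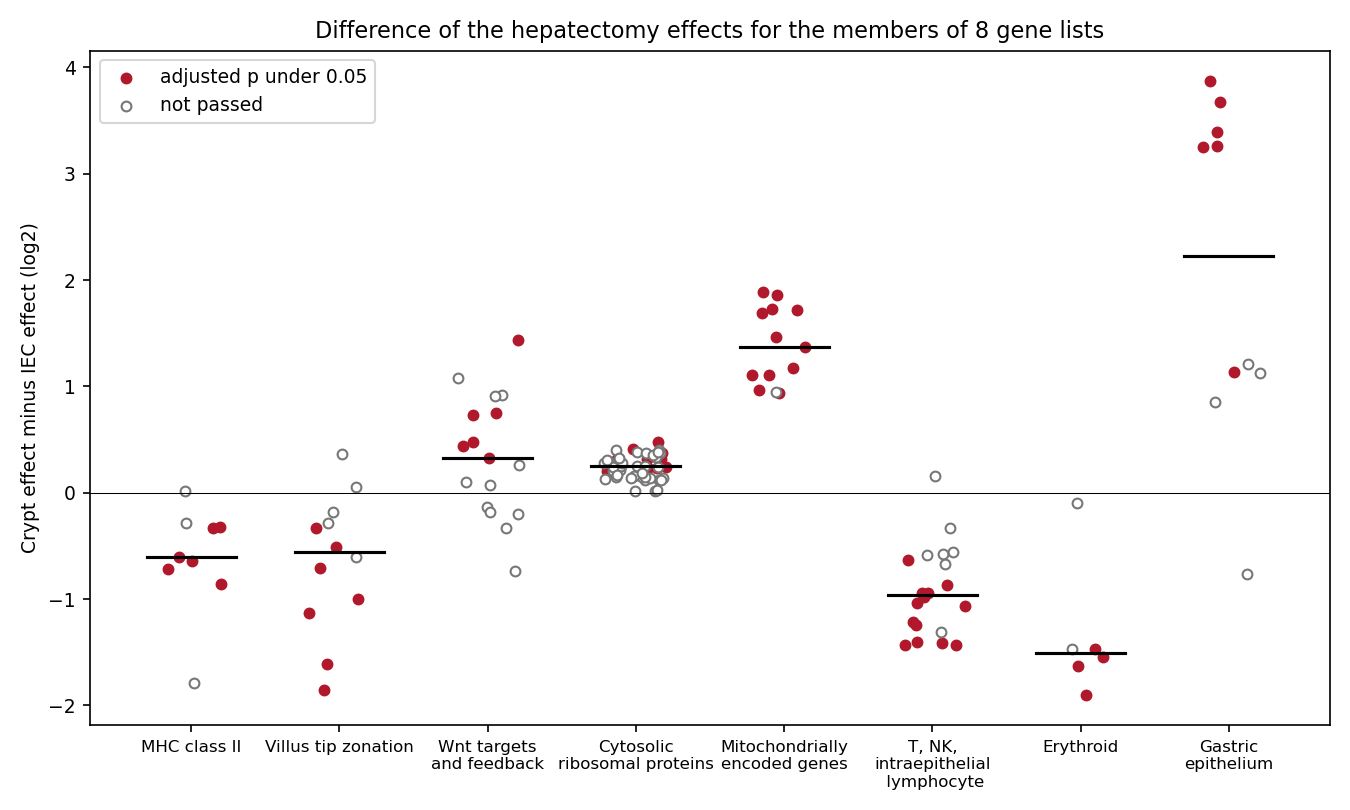
Crypt effect minus IEC effect (log2) for every tested member of 8 gene lists; red points passed an adjusted p under 0.05, open points did not, and black lines mark list medians. Mitochondrially encoded, ribosomal, Wnt and gastric genes called lie above 0, and class II, villus-tip, lymphocyte and erythroid genes called lie below.

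Genes typical of gastric epithelium differed in one direction. Of 10 tested, of 13 listed, 5 fell in IEC and 6 rose in crypts, and all 6 called interactions were higher in crypts against 9.64% of all genes. Tff1, the trefoil peptide of gastric pit cells (chromosome 17, 31161395 to 31165277), had 14.6 and 13 CPM in sham IEC, 1.41 and 1.5 in hepatectomy IEC, 3.03 and 3.63 in sham crypts and 4.76 and 4.31 in hepatectomy crypts. It fell 9.45-fold in IEC and rose by 0.43 ± 0.15 in crypts, an interaction of 3.67 ± 0.23 (adjusted p = 4.2e-09). Tff2, of gastric neck cells, went from 1.16 and 0.921 to 0.296 and 0.179 CPM in IEC and from 0.823 and 1.19 to 2.23 and 2.28 in crypts. The gastrokines Gkn1 and Gkn2 fell in IEC, by 3.28 and 3.56, with -0.02 and -0.16 in crypts, whereas Gkn3 rose in crypts (1.35) with 0.22 in IEC. The sham IEC libraries were thus the high ones for Tff1, Gkn1 and Gkn2, summed gastric genes being at 41.6 to 45.9 CPM there against 13.4 to 13.7 in sham crypts. The stretch of intestine used is not stated in the sources at hand, and its part was not tested. The crypt rise of Tff1 had an adjusted p of 0.204 without sham crypt replicate 1 and 0.124 without hepatectomy crypt replicate 1, and it also missed the threshold with DESeq2.

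Genes that rose in crypts and fell in IEC included regulators of progenitors and of chromatin. Myb, a transcription factor of crypt progenitors, had 27.2 and 29.3 CPM in sham IEC, 14.1 and 15.5 in hepatectomy IEC, 40.2 and 41.2 in sham crypts and 55.1 and 65 in hepatectomy crypts, with effects of 0.56 ± 0.08 in crypts and -0.94 ± 0.09 in IEC (interaction adjusted p = 1.3e-07). Suv39h2, a histone H3 lysine methyltransferase, rose by 0.96 in crypts and fell by 1.10 in IEC. Usp1, a deubiquitinase of DNA repair, rose by 0.71 and fell by 0.72. The alpha-fetoprotein gene Afp had 20.5 and 19.3 CPM in sham IEC, 8.47 and 8.86 in hepatectomy IEC, 8.20 and 7.87 in sham crypts and 12.6 and 13.3 in hepatectomy crypts. Groups without overlap in both fractions were a condition for choosing these 4 genes, so the separation adds no support. Their opposite calls held in all 15 alternative fits.

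The other leading genes of this direction were less firm. Yrdc, a tRNA modification gene, rose by 1.27 in crypts and fell by 0.51 in IEC, the latter with an adjusted p of 0.176 without sham IEC replicate 2 and 0.157 without hepatectomy IEC replicate 1. Ocm, encoding the calcium-binding protein oncomodulin, rose by 1.26 and fell by 0.43, the fall at 0.0547 without sham IEC replicate 2 and 0.0719 without hepatectomy IEC replicate 2. Cep85, a centrosome gene, fell 2.91-fold in IEC, and its crypt rise of 0.16 had an adjusted p of 0.0682 without sham IEC replicate 1, 0.0679 without sham IEC replicate 2, 0.334 without sham crypt replicate 1 and 0.182 without hepatectomy crypt replicate 1.

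Genes called in crypts alone with a rise included the cell cycle inhibitor Cdkn2c, encoding p18, with 6.05 and 4.73 CPM in sham crypts, 11.6 and 15.2 in hepatectomy crypts, 3.58 and 3.26 in sham IEC and 2.04 and 2.64 in hepatectomy IEC. Its IEC effect of -0.55 passed as a fall when single crypt libraries were left out (adjusted p = 0.0317 without sham crypt replicate 1, 0.0418 without sham crypt replicate 2, 0.0257 without hepatectomy crypt replicate 1 and 0.0280 without hepatectomy crypt replicate 2), so an absent IEC effect is not shown. Mxra7 rose by 1.86 in crypts with 0.11 in IEC, the antisense gene Arhgap27os2 by 1.61 with 0.13, Nfxl1 by 1.53 with -0.23, and Whrn, encoding the scaffold protein whirlin, by 1.02 with -0.47. The RNA-binding protein gene Hnrnpu (249 and 373 CPM in hepatectomy crypts, 114 and 112 in sham crypts) and the dynein light chain gene Dynll2 rose by 1.46 and 1.34. Their interactions had adjusted p values of 0.0205 and 0.0263 and lost the call without either library of sham IEC, sham crypts or hepatectomy IEC, with values of 0.0658 to 0.0901 and 0.0587 to 0.0999. The crypt rise of Hnrnpu had an adjusted p of 0.0549 without sham crypt replicate 1 and 0.0556 without sham crypt replicate 2, and a fall of 0.35 in IEC passed at 7.6e-06 without hepatectomy crypt replicate 1 and 8.9e-06 without hepatectomy crypt replicate 2.

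Falls in crypts alone were led by Stox2, a storkhead-box gene, at 5.67 and 5.65 CPM in sham crypts, 0.529 and 0.512 in hepatectomy crypts, 0.970 and 0.575 in sham IEC and 0.657 and 0.786 in hepatectomy IEC. The sham crypt libraries were the high ones and all others lay far below, a crypt effect of -3.44 ± 0.25. Tmem87a, a Golgi membrane protein gene, fell by 1.51 with 0.43 in IEC, a value that passed as a rise without sham IEC replicate 2 (adjusted p = 0.0299).

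Falls in IEC alone, besides Ccnd1, Lpin1, Gcg and the gastrokines, included Clca3b, a relative of the goblet gene Clca1, with 405 and 412 CPM in sham crypts, 355 and 415 in hepatectomy crypts, 298 and 303 in sham IEC and 84.9 and 80.7 in hepatectomy IEC. It fell 3.63-fold in IEC. A small crypt fall of 0.09 passed without hepatectomy crypt replicate 2 (adjusted p = 0.00536). Rbp7, a retinoid-binding protein gene, fell from 15.6 and 15.7 to 4.83 and 5.21 CPM in IEC and had 16.3 and 19.2 and then 16.8 and 18.6 in crypts, where the libraries overlapped. Nrep, encoding a small neuronal regeneration-related protein, fell by 1.90 with 0.07 in crypts.

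Several further genes fell in crypts and rose in IEC with both calls held in all 15 alternative fits. Btg2, an antiproliferative p53 target, had 41.6 and 44 CPM in sham IEC, 95 and 86.9 in hepatectomy IEC, 34.3 and 35.2 in sham crypts and 26.4 and 27.2 in hepatectomy crypts, with effects of -0.37 ± 0.06 and 1.09 ± 0.06 in crypts and IEC. Plod1, a collagen-modifying lysyl hydroxylase gene, had 3.51 and 3.49 CPM in sham IEC, 6.93 and 7.39 in hepatectomy IEC, 2.26 and 2.73 in sham crypts and 1.20 and 0.955 in hepatectomy crypts (interaction -2.26 ± 0.27, adjusted p = 1.1e-05). Rec8, a meiotic cohesin gene, fell by 0.63 in crypts and rose 2.61-fold in IEC. Sectm1a and the pancreatic lipase-related gene Pnliprp2 had effects of -1.06 and -1.5 in crypts and 1.13 and 0.48 in IEC.

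PEDF is the product of Serpinf1, for which several cell-surface partners have been proposed. Serpinf1 itself was almost absent, with raw counts of 0 and 0 in sham IEC, 2 and 2 in hepatectomy IEC, 0 and 3 in sham crypts and 4 and 3 in hepatectomy crypts, and was not tested. Of the 6 partner and target genes tested, of 8 listed with Serpinf1, 2 were called in crypts alone. Lrp5, a Wnt co-receptor, had 9.17 and 9.45 CPM in sham crypts, 16.2 and 16.1 in hepatectomy crypts, 7.28 and 7.56 in sham IEC and 8.54 and 7.93 in hepatectomy IEC, a rise of 0.79 ± 0.10 in crypts with 0.15 in IEC (95% interval -0.09 to 0.39). Lrp6, its relative and a proposed PEDF receptor, rose by 0.41 in crypts with -0.11 in IEC, and its interaction had an adjusted p of 0.0506 without sham IEC replicate 2 and 0.0562 without hepatectomy IEC replicate 2. Ppara, a nuclear receptor of fatty acids, rose in both, more in IEC (1.11) than in crypts (0.53). The interaction was not called for the lipase gene Pnpla2 (0.20 ± 0.08), the laminin receptor gene Rpsa (0.51 ± 0.15) or the membrane receptor gene Plxdc1 (0.03 ± 0.79). That of Pnpla2 passed without hepatectomy IEC replicate 2 (adjusted p = 0.0126) and in the fit without mitochondrial genes (0.0292). That of Rpsa passed in 8 of 15 alternative fits: without hepatectomy IEC replicate 2 (0.0282), hepatectomy crypt replicate 1 (0.0255) or replicate 2 (0.00384), with RLE scaling (0.0338), DESeq2 (1.3e-04), no filter (2.0e-11) and estimates that were not robust (0.00949), and without mitochondrial genes (0.0302).

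Features that the classes did not use differed between them. Genes that rose in crypts and fell in IEC had a median spliced length of 4201 bases, those that rose in crypts alone 4119.5 and those that fell in IEC alone 3798, against 2884 over all genes tested. Their median GC content was 48.1 to 48.3%, against 49.3%. Falls in crypts alone and rises in IEC alone went the other way, at 51.1 and 51.1%. In the sham libraries, 72.2% of the genes that fell in IEC alone were higher in crypts than in IEC, and 24.8% of those that rose in IEC alone. The shares were 70.1% for falls in crypts alone, 29.5% for rises in crypts alone and 51.5% over all genes tested. Sham libraries enter both quantities, so this is a description. Median lengths were 2966 bases for opposite genes that fell in crypts, 2796 for falls in crypts alone and 2830 for rises in IEC alone. Rises in both fractions had 2812 where larger in crypts and 2392.5 where larger in IEC. Falls in both had 3165 where larger in IEC and 2275 where larger in crypts. Against 2884, the values 2966 and 2812 thus lay apart from the other classes of their direction. Median GC content was 50.09% for opposite genes that fell in crypts. It was 47.54 and 50.43% for these shared rises and 49.31 and 50.23% for these shared falls, in the same order. Against 49.33% over all genes, GC was lower in each of these classes with the higher interaction in crypts and higher in the others. Of all genes tested, 77.0% were protein coding, against 87.8 to 94.2% in the opposite and single-fraction classes. The part of length, GC and gene type in the differences was not tested.

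Of the 132 tested genes named here with their values, 36 share exon sequence with another annotated gene, including Ccnd1, Srebf1, Mmp7, Dll1, Dll4, Suv39h2, Yrdc, Myb, Tff1, Axin2, Nr1d1, Tef, Dbp, Hnrnpu, Slc30a1, Tmem87a, Tpsg1, Arhgap27os2, Nrg4 and Ciita. Nothing in the sources used here says whether the counting used strand, so for these genes reads of the neighbour may be included.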

How the data were processed

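Expected counts per gene for 8 intestinal libraries were used as deposited by the authors. Per the submitters' processing notes, STAR, Partek and mm10 were used; versions, the counting program, its strand setting and the gene annotation are not given in the sources used here. Of the deposited counts, 36.7% had decimals and were rounded to integers. Values above 1e+06 had been written with 3 digits. The genes were tested with edgeR 4.0.16 (R 4.3.3) by a robust quasi-likelihood fit over all 4 groups, with TMM scaling and a filter on low counts (filterByExpr, minimum count 10, minimum total 15), with no covariate. Adjusted p values are Benjamini-Hochberg over all 18207 genes tested, and calls were made under 0.05. A gene counted as opposite when the interaction and both effects were called with different signs, and as crypt-only or IEC-only when the interaction and that effect alone were. SE is the size of the log2 fold change divided by the root of F. Totals of 26609786 to 43580050 counts set the precision. Simulated counts for 17742 genes held 67, 67 and 66 seeded interactions of 1.5-, 2- and 4-fold, of which 50.7, 74.6 and 93.9% were called. Of the calls, 10.4% (17 genes) were not seeded. Simulated means of hepatectomy crypts were kept within limits, so some of these 17 may hold a difference. As it stands, the share exceeded the level of 0.05 under which calls were made. It comes from a single simulation with its own number of seeded interactions and with dispersions estimated from the data. The share of false calls among the 3699 in the data is therefore not known.

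Counts of no replicate pair agreed within sampling noise. Positions are from GENCODE vM21, which matched 32723 symbols, 99.2% of them at the deposited position. Promoters are from RefSeq. The 53 gene lists hold 894 genes, of which 10 were not matched. Members and lists were chosen with earlier results of these data known, so lists are described by counts and medians without a test. Named genes are, per class, up to 8 with the largest interaction among those above 5 CPM and without overlap, up to 5 list members with the smallest p, and up to 3 abundant markers of other cell types; 24 of the 132 were chosen outside this rule after their values were seen: Fcgbp, Reg4, Tac1, Fev, Tph1, Gkn3, mt-Nd3, Ccl6, Bcas1, Pyy, Cry1, H2-DMa, Ciita, Slc28a2, Agr2, Lgr5, Tef, Dbp, Sst, Ghrl, Cck, Hlf, Defa26 and Defa39. Alternatives were RLE scaling, DESeq2 1.42.0, no filter, a stricter filter, a replicate block, size thresholds, fits of single fractions and leaving out each library. Estimates that were not robust, and a fit without mitochondrial genes, Gm10800 and CT010467.1, were added after seeing the data.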

Additional observations from a re-analysis of the deposited data

Results flagged for a closer look

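The hepatectomy effect differed between crypts and IEC in 3699 genes by the interaction test, 20.3% of those tested (edgeR quasi-likelihood test with Benjamini-Hochberg adjustment). The genes named in the results whose effects were called in opposite directions are listed with their interaction on the log2 scale, the crypt effect minus the IEC effect. Goblet and Paneth genes had negative values: -2.01 for Zg16, -1.62 for Guca2a, -1.44 for Tff3, -1.21 for Fcgbp, -1.47 for Mmp7 and -7.41 for Defa35. Peptide hormone genes and Reg4 had negative values: -1.25 for Gip, -0.83 for Nts, -0.72 for Sct, -0.44 for Sst and -0.58 for Reg4. Haemoglobin and leukocyte genes had negative values: -1.63 for Hba-a1, -1.90 for Hba-a2, -1.54 for Hbb-bs and -2.01 for Lyz2. The other genes that fell in crypts and rose in IEC had negative values: -2.26 for Plod1, -2.19 for Sectm1a, -2.01 for Rec8, -1.99 for Pnliprp2, -1.46 for Btg2, -1.26 for Slc39a4, -1.20 for Per1, -3.38 for Hlf, -0.91 for Dll1 and -0.71 for Srebf1. Gastric genes and some enteroendocrine genes had positive values: 3.67 for Tff1, 3.25 for Tff2, 1.62 for Fev, 1.09 for Chgb and 0.92 for Tac1. The other genes that rose in crypts and fell in IEC had positive values: 2.06 for Suv39h2, 1.89 for Afp, 1.79 for Yrdc, 1.70 for Cep85, 1.69 for Ocm, 1.5 for Myb, 1.43 for Usp1 and 1.47 for mt-Cytb. The value of Defa35 rests on few counts in hepatectomy crypts.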

How the results depend on the processing

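No called interaction of a named gene changed sign under the alternatives run, and of the uncalled ones those of Ciita, Lgr5 and Plxdc1 did (-0.05 to 0.10, -0.36 to 0.07, -0.40 to 0.64). Which direction had more calls did depend on the fit: higher interactions made up 38.5 to 57.8% of the calls, and outnumbered lower ones with RLE scaling (1872 and 1807), DESeq2 (1359 and 1269), no filter (2179 and 1953), whichever crypt library was left out, and without mitochondrial genes, Gm10800 and CT010467.1 (2172 and 1585). Over all alternatives and named genes, 1932 interactions stayed on the same side of the threshold, 27 lost the call and 14 gained it. DESeq2 called 1269 lower interactions and 209 opposite genes, 123 rising and 86 falling in crypts; the cause was not tested. Requiring log2 effects of at least 1 left 750 interactions (331 higher, 419 lower), 19 opposite genes (6 rising, 13 falling in crypts), 288 in crypts only, 189 in IEC only, and 1605 crypt and 1437 IEC effects, by construction. Requiring 0.5 for both effects left 59 opposite genes. With each library left out in turn, the lone library of its group being assumed to vary like the others, 2704 to 3532 interactions were called, 1282 to 1819 higher and 1169 to 1713 lower. Opposite genes numbered 284 to 417 (129 to 239 rising, 102 to 178 falling in crypts), crypt-only genes 645 to 947, IEC-only genes 868 to 1376, crypt effects 5228 to 7179 and IEC effects 5473 to 7361. Without any filter, the other fraction's effect also passed for Cdkn2c, Ces1d, Clca3b, Enpp3, Gzmb, H2-Ab1, H2-Eb1, Tph1, Whrn and Defa39. With the stricter filter it passed for Muc2, Dll4, Tmem87a and mt-Co3, while the IEC fall of mt-Cytb missed. With DESeq2 an effect missed for Sct, Sst, Hlf, Defa26, Tff1, Cep85 and Ocm. With the replicate block, 3533 interactions and 391 opposite genes were called, and counts moved little. The crypt rise of Defa39 and the crypt fall of Enpp3 (-0.22, adjusted p = 0.0452 by the edgeR test) passed with it. Same-numbered libraries had deviations correlated at -0.02 to 0.03, so the numbers were not taken as pairs. With few counts, as for G0s2 or Defa35, depth limits the size of a difference that can be stated.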
